A study of Mus musculus with 6 samples.

Results

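The regions described here are H3K4me3 regions of mouse embryonic stem cells that were listed in a line rescued with wild-type WDR5 and in which a line rescued with a WDR5 mutant had no region at all. They are the rows of the wild-type rescue (WT rescue) H3K4me3 peak list on chromosomes 1 to 19 that no row of the mutant rescue H3K4me3 list overlapped by 1 bp or more. There were 13394 such regions, called WT-only below. They were 19.3% of the 69221 autosomal regions of that list, which held 71695 regions in all, and the 4 peak lists of the series held 183983. The other 55827 autosomal regions of the WT rescue list are called shared. The same rule turned round gave 16069 mutant-only regions, 22.4% of 71757. The regions were selected on measured values, the calls of both H3K4me3 libraries. These counts come from the rule itself and are no test of a difference between the lines. The number of WT-only regions depends on the rule: it was 7802 for regions with a −log10 p of at least 5, and 24907 when an overlap had to cover 50% of both regions.

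The study made 6 chromatin immunoprecipitation sequencing (ChIP-seq) libraries from embryonic stem cells kept in 2i+LIF, a medium of kinase inhibitors and leukaemia inhibitory factor that holds the cells in the naive state. All cells lacked both endogenous Wdr5 and p53, and had GFP knocked in at Rx, the gene of a transcription factor that specifies the eye field. The WT rescue had wild-type WDR5 put back, and the mutant rescue had WDR5 with the substitutions S91K and Y191F, numbered as in the labels. Each line gave 1 H3K4me3, 1 WDR5 and 1 input library. The labels do not say how the rescue genes were driven, nor whether a line is a single clone. As each line has a single library per antibody, no difference between them could be set against replicate spread, and no test was made. Percentages come with 95% binomial intervals (exact, Clopper-Pearson) that reflect counting error alone.

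H3K4me3 is histone H3 trimethylated at lysine 4, a mark laid down at gene starts by the KMT2 and SETD1 methyltransferase complexes. WDR5, a protein of WD repeats, is a common subunit of these complexes and holds them together. CpG-rich promoters carry the mark in most cell types, whether or not the gene is active, and some subunits of the complexes bind unmethylated CpGs. Weaker and narrower H3K4me3 is also found at CpG-poor promoters and at some enhancers. The presence of a region is therefore not a measure of transcription.

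The sequences below show the kind of gene start at which the clearest WT-only regions lay. For each gene they give the 250 bases before the start, 5′ to 3′ on the gene's strand, from RefSeq on GRCm38.p6, the assembly behind mm10. Capitals mark every CpG and every TATAAA or its reverse complement TTTATA. The first set holds the highest folds among genes with a WT-only region and no mutant rescue region at the start.
Ano2: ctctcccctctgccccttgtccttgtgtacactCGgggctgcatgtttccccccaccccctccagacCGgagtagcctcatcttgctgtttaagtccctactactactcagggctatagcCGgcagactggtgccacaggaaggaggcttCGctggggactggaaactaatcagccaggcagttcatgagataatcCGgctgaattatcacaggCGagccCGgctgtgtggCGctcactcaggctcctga
Olfm3: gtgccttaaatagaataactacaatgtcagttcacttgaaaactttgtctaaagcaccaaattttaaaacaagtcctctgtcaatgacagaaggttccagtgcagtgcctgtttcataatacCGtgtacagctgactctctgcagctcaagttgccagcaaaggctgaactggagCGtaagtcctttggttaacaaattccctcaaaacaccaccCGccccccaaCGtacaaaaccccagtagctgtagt
Tnr: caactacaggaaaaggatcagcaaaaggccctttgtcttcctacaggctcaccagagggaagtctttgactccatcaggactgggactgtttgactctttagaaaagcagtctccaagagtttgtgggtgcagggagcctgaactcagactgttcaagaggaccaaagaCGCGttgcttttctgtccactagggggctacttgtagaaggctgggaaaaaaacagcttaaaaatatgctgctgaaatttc
Gm4131: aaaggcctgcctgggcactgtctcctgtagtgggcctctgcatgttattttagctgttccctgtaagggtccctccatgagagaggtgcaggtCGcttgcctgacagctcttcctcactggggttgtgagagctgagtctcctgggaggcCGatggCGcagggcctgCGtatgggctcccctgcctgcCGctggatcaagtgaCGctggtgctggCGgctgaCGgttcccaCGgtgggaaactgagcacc
The second set holds keratin genes, the list with the largest share of genes whose start had a WT-only region and no mutant rescue region.
Krt71: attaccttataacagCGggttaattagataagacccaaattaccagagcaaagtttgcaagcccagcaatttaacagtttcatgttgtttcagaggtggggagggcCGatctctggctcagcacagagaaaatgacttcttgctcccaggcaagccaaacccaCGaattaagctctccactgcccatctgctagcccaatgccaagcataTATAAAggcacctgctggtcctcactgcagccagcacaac
Krt27: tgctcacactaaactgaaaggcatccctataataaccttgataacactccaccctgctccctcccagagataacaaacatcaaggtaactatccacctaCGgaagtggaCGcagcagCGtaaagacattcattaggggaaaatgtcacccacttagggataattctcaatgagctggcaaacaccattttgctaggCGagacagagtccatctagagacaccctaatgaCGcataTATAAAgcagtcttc
Krt2: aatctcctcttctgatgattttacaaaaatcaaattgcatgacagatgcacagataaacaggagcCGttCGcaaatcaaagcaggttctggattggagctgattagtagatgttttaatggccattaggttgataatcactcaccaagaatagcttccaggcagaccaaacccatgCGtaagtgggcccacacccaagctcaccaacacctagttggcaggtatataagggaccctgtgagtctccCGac
Krtap4-1: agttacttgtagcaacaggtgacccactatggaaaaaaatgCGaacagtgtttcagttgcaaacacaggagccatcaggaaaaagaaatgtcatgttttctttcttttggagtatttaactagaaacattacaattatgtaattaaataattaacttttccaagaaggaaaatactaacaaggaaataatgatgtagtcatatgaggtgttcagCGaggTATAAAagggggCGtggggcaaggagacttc
The Ano2, Olfm3, Tnr and Gm4131 stretches hold 8, 4, 2 and 9 CpGs, and the 4 keratin stretches 3 to 5. TATAAA stands near the start in Krt71, Krt27 and Krtap4-1. Upstream stretches with a shared region had a median of 16 CpGs, as described with the base composition below.

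WT-only regions were narrow and low. Their median width was 286 bp, with the middle 50% between 201 and 424 bp, and 172 of them (1.28%) were wider than 1000 bp. Shared regions had a median width of 928 bp, and 45.6% were wider than 1000 bp. The median fold enrichment at the summit, as the authors' peak caller gave it, was 3.02 in WT-only and 5.77 in shared regions of the same list. A −log10 q of at least 2 was reached by 11080 WT-only regions (82.7%) and by 96.7% of shared regions. Mutant-only regions had a median width of 292 bp, and 73.3% reached that q in their own list. Fold, p, q and width bear on whether a region finds a partner in the other list, so these values describe the selection and are not a result of it. When the 69221 regions were ordered by −log10 p and cut into 10 equal parts, 54.4% of the weakest part were WT-only. The share was 16.8% in the fifth part and 1.40% in the seventh. The 2 strongest parts held no WT-only region.

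**Figure D1:**
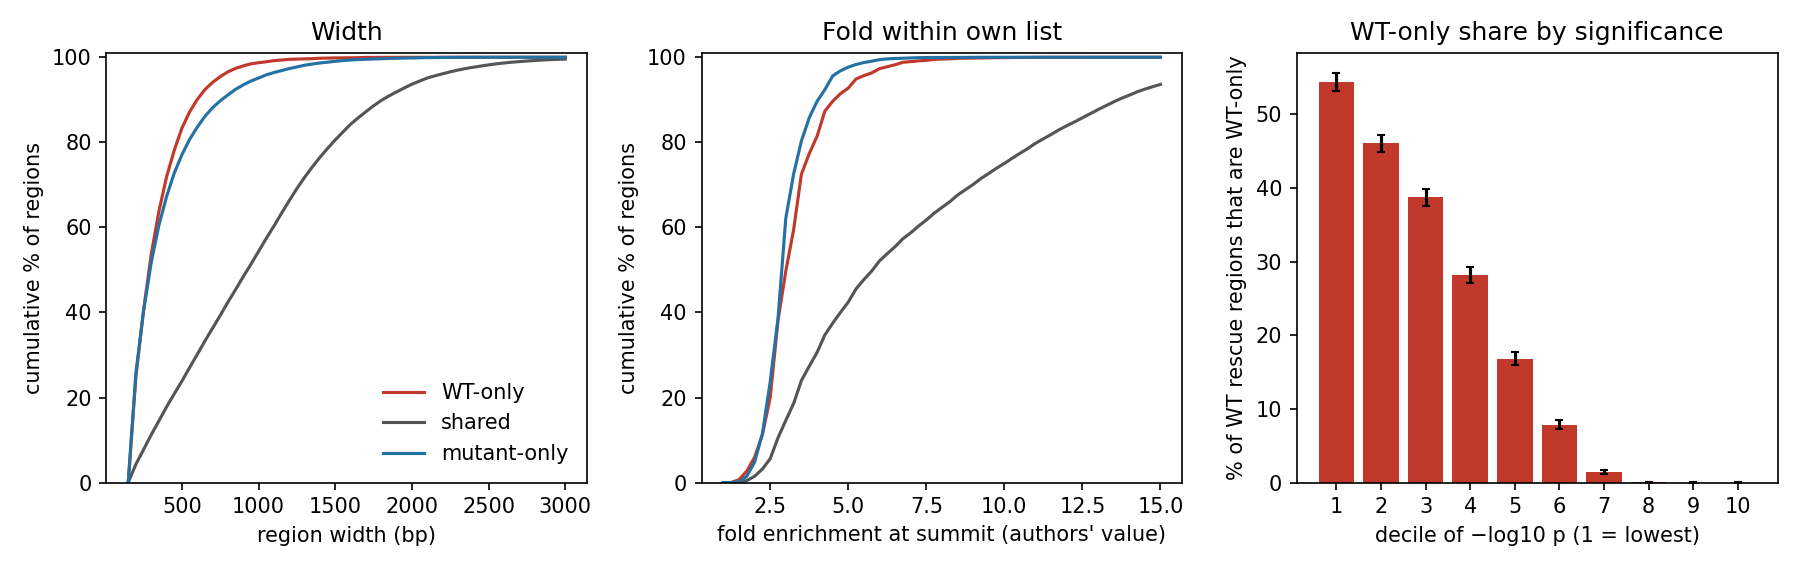
Left and middle, cumulative percent of regions (y) by width in bp and by the authors' fold at the summit (x) for WT-only, shared (WT rescue rows) and mutant-only regions, each on its own list's scale. Right, percent of WT rescue regions that were WT-only (bars, with exact 95% intervals) in 10 equal parts by −log10 p: 54.4% in the weakest part and 0 in the 2 strongest.

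Most WT-only regions stood alone. The nearest mutant rescue H3K4me3 region was more than 5 kb away for 7635 of them (57.0%), 1 to 5 kb away for 3118 (23.3%) and within 1 kb for 2641 (19.7%). For 1427 (10.7%) it was more than 50 kb away, and the median distance was 6744.5 bp. The folds followed the distance: the median was 2.53 within 1 kb, 2.75 at 1 to 5 kb and 3.27 beyond 5 kb. Mutant-only regions were similar in both respects. The nearest WT rescue region was more than 5 kb away for 53.7% of them, and their median folds were 2.56, 2.70 and 2.99. With a reciprocal overlap of 50% as the rule, 30.7% of WT-only regions were more than 5 kb away. Among the mutant rescue neighbours within 1 kb of a WT-only region, 73.3% were themselves shared with the WT rescue list.

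The edge of the rule ran through regions much like each other. A gap of 0 to 10 bp separated 62 WT-only regions from a mutant rescue region, and 3 of these abutted it. An overlap of at most 10 bp made 46 WT rescue regions shared. The median fold was 2.66 in the former and 2.69 in the latter, and the median widths were 222.5 and 225.5 bp. The abutting region chr13:57984397-57984629 had a fold of 2.31. The shared region chr11:5318087-5318323, which overlapped its partner by 1 bp, had a fold of 2.501.

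Few WT-only regions lay at gene starts. Within 1 kb of the start of a protein-coding gene there were 614 (4.58%, interval 4.24 to 4.95%), against 319 mutant-only regions (1.99%, 1.78 to 2.21%) and 25.6% of shared regions. Another 797 (5.95%, 5.56 to 6.36%) lay at the start of a gene of another class, such as a long non-coding RNA. There the share was close to that of mutant-only regions (5.53%, 5.18 to 5.90%), and 6.96% of shared regions lay at such starts. Inside protein-coding genes lay 6551 (48.9%), against 39.1% of mutant-only regions. Outside protein-coding genes lay 5432 (40.6%), against 53.4%. In these 2 lists the shares at protein-coding starts and inside protein-coding genes were larger for WT-only than for mutant-only regions, with no replicate to set them against. The share at protein-coding starts was 2.93% against 1.19% for the genes with an annotated start alone, and 7.80% against 4.07% with a window of 2.5 kb. Gene starts were taken from the RefSeq promoter table for 16456 of 20661 genes. For the others, which have no strand in the tables used, either annotated end of the gene counted.

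The strongest WT-only regions lay mostly away from starts. A fold of 6 or more was reached by 360 regions, with a median width of 577 bp. Of these, 187 (51.9%) lay outside protein-coding genes, 136 (37.8%) inside one and 19 (5.28%) at a protein-coding start, and 313 (86.9%) were more than 5 kb from any mutant rescue region. A fold of 6 or more in their own list was reached by 90 mutant-only regions, with a median width of 860.5 bp. Of these, 57.8% lay outside protein-coding genes, 33.3% inside one and 1.11% at a protein-coding start. The share more than 5 kb from any WT rescue region was 83.3%. The highest WT-only fold, 12.7, belonged to a region of 850 bp at the start of Ano2. The next were 11.4 at chr5:106825113-106826015, between genes, and 11.2 at chr2:10633270-10633437, a region of only 168 bp with Sfmbt2 as the nearest gene start, 260834 bp away. Folds of 10.97 followed at chr2:65818136-65818950, 26817 bp from the start of Csrnp3, and at chr4:131678121-131678706, with Ptpru as the nearest gene. Of the next 5 by fold, 4 lay inside protein-coding genes, and these were picked after their values were seen. The folds were 10.8 in Vps8 and in Tbx5, a T-box factor of heart and forelimb, and 10.4 in Csmd1 and in Dnmt3a, a de novo DNA methyltransferase.

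The widest WT-only region measured 2158 bp and lay in Nrg1, which encodes the growth factor neuregulin, at chr8:31917507-31919664 with a fold of 7.74. The next measured 1927 bp near Apol10a, 1870 bp in Ank2, the gene of a membrane-skeleton adaptor, 1850 bp in Mcf2l and 1744 bp at the start of Anxa1, which encodes the phospholipid-binding protein annexin A1. None of these 5 was overlapped by a region of either WDR5 list.

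Of 20661 protein-coding genes, 605 (2.93%) had a WT-only region within 1 kb of the start. In 321 of them a shared region stood at a start as well, either near the WT-only region or at another start of the gene. For 274 genes (1.33%), from 271 regions, no shared region and no mutant rescue region lay there. The matching number for mutant-only regions was 130 genes (0.629%). The 2 numbers come from lists of 71695 and 74305 regions. These lists also differed in the strength of their single-line regions. A −log10 p of at least 5 was reached by 7802 WT-only and 6935 mutant-only regions, and a fold of 6 or more by 360 and 90. The part of list length and strength in the numbers of genes was not tested. For regions with a −log10 p of at least 5 the numbers of genes were 199 and 74. The 605 genes with any WT-only region became 1205 under a reciprocal overlap of 50%, 1034 with a window of 2.5 kb, 402 without regions within 1 kb of a mutant rescue region and 385 for genes with an annotated start.

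Among these 274 genes, the 3 highest folds were at Ano2, Olfm3 and Tnr. Ano2, a calcium-activated chloride channel of sensory neurons, had a fold of 12.7 and a −log10 q of 51.1 at chr6:125690061-125690910, and the nearest mutant rescue region lay 75161 bp away. Olfm3, a secreted olfactomedin glycoprotein of brain and eye, had a fold of 9.23 in a region of 1094 bp at chr3:114904017-114905110, 213840 bp from any mutant rescue region. Tnr, the extracellular matrix protein tenascin-R of the central nervous system, had a fold of 7.70 at chr1:159523695-159524603, with a distance of 125832 bp. These 3 regions covered the annotated start itself. Gm4131 had a fold of 7.31 at chr14:62480637-62481382 and 1700012B09Rik one of 6.54 at chr9:14770653-14771293. Robo4, a roundabout-family receptor of endothelial cells, had a fold of 7.05 in a region of 1271 bp at chr9:37401700-37402970, with a mutant rescue region 5033 bp away.

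For 5 further genes of high fold or low p, the WT-only region stood at one annotated start and a shared region at another. Cntn1, a neuronal adhesion molecule, had a fold of 8.46 at chr15:92161153-92162104, and its shared region lay 109005 bp from it. Lamp5, a neuronal lysosome-associated membrane protein, had 8.08 at chr2:136050977-136051729. Myt1l, a zinc finger factor of neurons, had 7.31 at chr12:29534536-29535418, and Asic2, an acid-sensing cation channel, had 6.73 at chr11:81968396-81969050. Csrnp3, a nuclear protein expressed in brain, had 6.02 in a region of 1066 bp at chr2:65845768-65846833. Of these 11 genes, none had a region of either WDR5 list over its WT-only region.

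Gene lists of lineages and families were counted at their starts and read against the 1.33% of all protein-coding genes with a WT-only region and no mutant rescue region. None of the 24 naive pluripotency genes, 12 formative and primed, 21 eye-field and neuroectoderm, 21 mesoderm or 14 endoderm genes was in that class, nor were any of 23 p53 targets and 18 KMT2/SETD1 complex subunits. All 24 naive genes had a region in both lines. Tdgf1, a Nodal co-receptor, was the only naive gene with a WT-only region nearby, of 237 bp and fold 1.32, 184 bp from a mutant rescue region. Hox genes, which pattern the body axis, had WT-only regions at 5 of 39 starts, with folds of 1.77 to 2.48, all at genes with a shared region, against 2.93% of all genes with any WT-only region at the start. WT-only regions also stood at 4 of 63 replication-dependent histone genes, likewise at genes with a shared one. Clustered protocadherin genes, which encode neuronal adhesion molecules, had a WT-only region at 6 of 57, and 2 of these (3.51%) had no mutant rescue region. All 6 were counted at an annotated end of the gene, as were Hoxb6, Hoxc9 and Hoxc12 among the Hox genes. Either end counted for genes without an annotated start, so these shares are not strictly comparable with those of all genes.

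Receptor, channel and transporter families had between 0 and 7 genes in the class. Olfactory receptor genes were in the class at 7 of 1100 starts (0.636%), below the share of all genes, and the strongest was Olfr982 with a fold of 5.19 at chr9:40074616-40075254. That share is of all 1100 genes, of which only 22 had any WT rescue region at the start, 15 of them a shared one. Vomeronasal receptors had 0 of 352, and ionotropic glutamate and GABA-A receptors, the ion channels of fast synaptic transmission, had 0 of 33. The list of voltage-gated ion channels, which also held potassium leak channels, had 3 of 97. These were Kcns1, a modulatory potassium channel subunit (fold 5.19, chr2:164170756-164171348), Scn3a, a neuronal sodium channel (3.85), and Kcnk18, a potassium leak channel (3.27). Cytokine and receptor genes had 3 of 161, among them Il6, an inflammatory cytokine, with a fold of 4.81 in a region of 737 bp at chr5:30012822-30013558. Solute carriers had 4 of 356, led by Slc6a19, a neutral amino acid transporter (4.23, chr13:73692116-73692747). Zinc finger genes had 3 of 386, led by Zfp831 with a fold of 6.35. Scn3a and Zfp831 were counted at an annotated end of the gene.

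**Figure D2:**
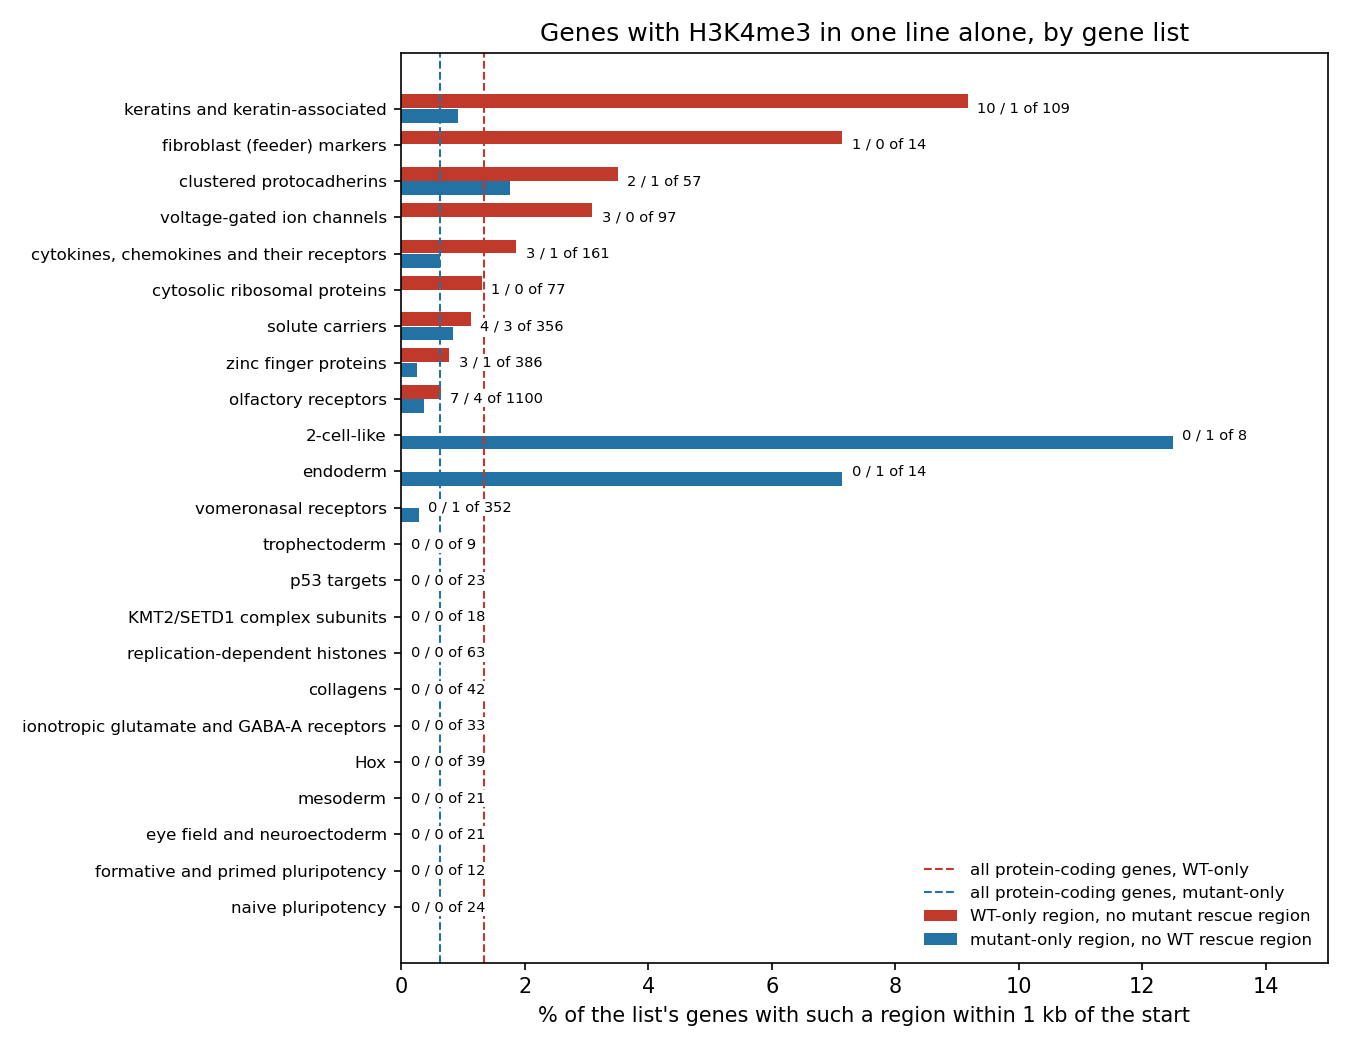
Percent of each list's genes (x) with a WT-only region and no mutant rescue region within 1 kb of the start (upper bar) and with a mutant-only region and no WT rescue region (lower bar); dashed lines give all protein-coding genes, and the numbers are WT-only and mutant-only genes of all in the list. Keratins stand at 9.17% against 1.33% of all genes, and 11 lists with no such gene in either line show no bar.

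Keratin and keratin-associated protein genes, which build the intermediate filaments of epithelia and hair, held 10 genes in the class of 109 (9.17%), and 1 mutant-only gene. The family was singled out for a closer description after these counts were seen. Of the 10, 6 lie in the type I cluster on chromosome 11, which has 50 genes of the list, and 4 lie in the type II cluster on chromosome 15, which has 26. None of the 24 genes on chromosome 16 was among them. On chromosome 15, Krt71, a keratin of the inner root sheath of hair, had a fold of 5.77 at chr15:101742653-101743010. Krt4, a keratin of mucosal epithelium, had 5.39, Krt2, an epidermal keratin, 5.19 in a region of 717 bp, and Krt75, a hair follicle keratin, 3.08. Krt4 has no annotated start. It was counted at an annotated end of the gene, 336 bp from the region, which may not be its start. On chromosome 11, Krt27 and Krt28, keratins of the inner root sheath, had folds of 5.19 and 3.46, and Krt12, the keratin of corneal epithelium, had 4.62. The keratin-associated genes Krtap4-1, Krtap4-16 and Krtap4-7 had 5.002, 4.04 and 2.69. Krtap genes of one subfamily are near-identical copies, so reads could be placed on the wrong copy and these 3 are uncertain.

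The 10 keratin regions lay far from any mutant rescue region. They were 328 to 717 bp wide, the nearest mutant rescue region was 10322 to 81386 bp away, and neither WDR5 list had a region over any of them. Other WT-only regions stood near some of them. Counted from the left edge of the chromosome 11 cluster with its flank, WT-only regions at 152 and 158 kb lay between those at Krt27 (138 kb) and Krt28 (162 kb). On chromosome 15, a WT-only region at 596 kb lay near that at Krt4 (591 kb). Across the whole clusters with their flanks, 17 WT-only, 7 mutant-only and 19 shared regions lay on chromosome 11, and 9, 0 and 16 on chromosome 15. The WT-only regions there had median folds of 3.66 and 4.81, and the shared ones 6.54 and 8.18. A shared region stood at the start of 5 of 50 genes on chromosome 11 and of 8 of 26 on chromosome 15. Krt7, a keratin of simple epithelia, had a shared region with a small WT-only one beside it.

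**Figure D3:**
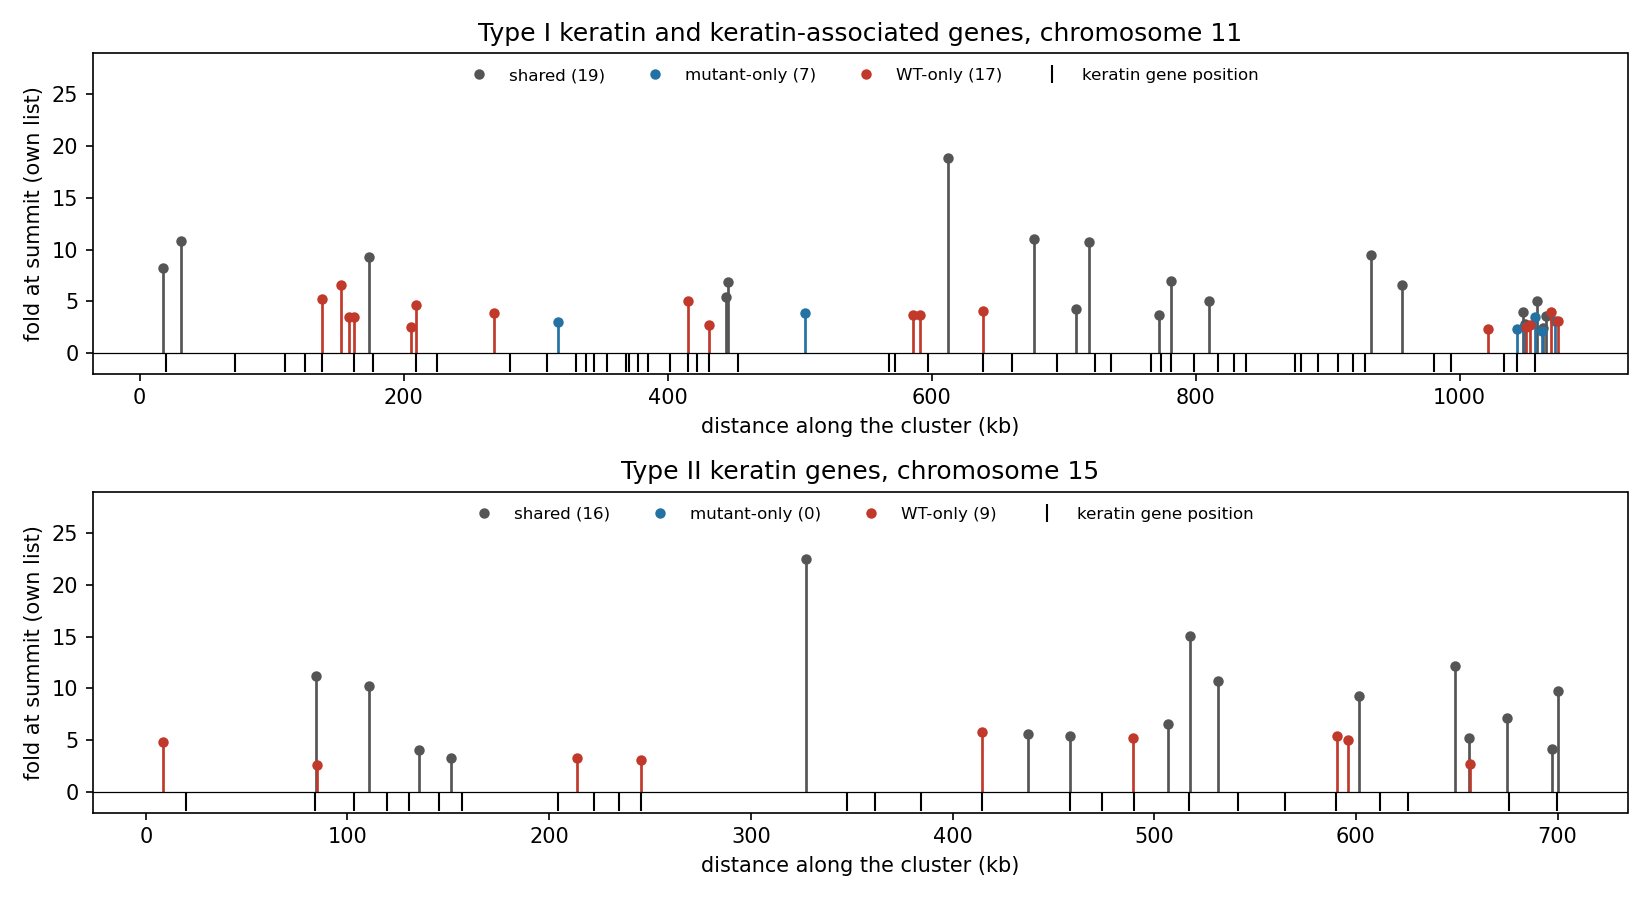
Fold at the summit, each in its own list (y), of the H3K4me3 regions along the keratin clusters of chromosome 11 (top) and chromosome 15 (bottom), by distance in kb from the left edge of the window (x); black ticks are gene positions. WT-only regions (17 and 9) lie scattered among shared ones (19 and 16), and the highest WT-only fold at a gene start is 5.77, at Krt71.

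Markers of other cell types were counted in both lists. All 8 embryonic stem cell markers, among them Pou5f1, Nanog and Sox2, had a region at the start in both lines. Fibroblast markers had a region at 7 of 8 starts in the WT rescue, against 5 of 8 in the mutant line. Acta2 and Col1a1 made the difference. Acta2, smooth muscle actin, had a WT-only region of 1699 bp and fold 4.79 at chr19:34253611-34255309, 35048 bp from any mutant rescue region, and Col1a1, a fibrillar collagen, had a narrow one of fold 3.85 at one end of the gene. Col1a1 also had a shared region at an end of the gene, whose mutant rescue partner lay beyond 1 kb of it. Trophectoderm markers had regions at 4 of 5 in both lines, and 2-cell-like markers at 0 of 3 starts for the WT rescue against 1 of 3 for the mutant. The labels do not mention feeder cells. The part of other cell types in the WT-only regions was not tested.

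Starts with WT-only regions had a base composition between that of starts with shared regions and that of starts with none. Starts were sorted one by one here, so a gene with a WT-only region at 1 start may have a shared region at another. Over the 250 bases before 281 annotated starts with a WT-only region the median was 5 CpGs (middle 50%, 3 to 7). It was 16 at 13583 starts with a shared region, 3 at 122 starts with a mutant-only region, 2 at 6073 starts with no region and 10 over all 20084 starts. Only 4.27% of the WT-only starts had 15 or more CpGs, against 55.5% of those with shared regions. GC content had medians of 52.8%, 60.8%, 50% and 45.2% at WT-only, shared, mutant-only and empty starts. Starts of 1 gene can lie close together, so the 281 starts belong to 255 genes and are not independent. These 255 genes are not the class of 274 genes above, in which 199 had an annotated start.

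Short motifs were counted in the same 250 bases on both strands. GGGCGG, the core of the GC box, was found at 23.8% of WT-only starts, 60.5% of shared, 9.84% of mutant-only and 6.67% of empty ones, and at 43.4% of all. TATAAA, the core of the TATA box, was found at 14.6% of WT-only starts, 13.9% of mutant-only, 5.90% of shared and 24.5% of empty ones, and at 11.7% of all. CCAAT stood at 33.1% of WT-only, 26.2% of mutant-only and 35.3% of all starts, and CACGTG at 6.76%, 4.92% and 6.69%. Among the keratin genes of the class, 7 of 9 listed starts held TATAAA, and 1 held GGGCGG. Over all 88 listed keratin starts, 58 (65.9%) held TATAAA. The CpG counts at the 9 starts ran from 0 to 6.

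**Figure D4:**
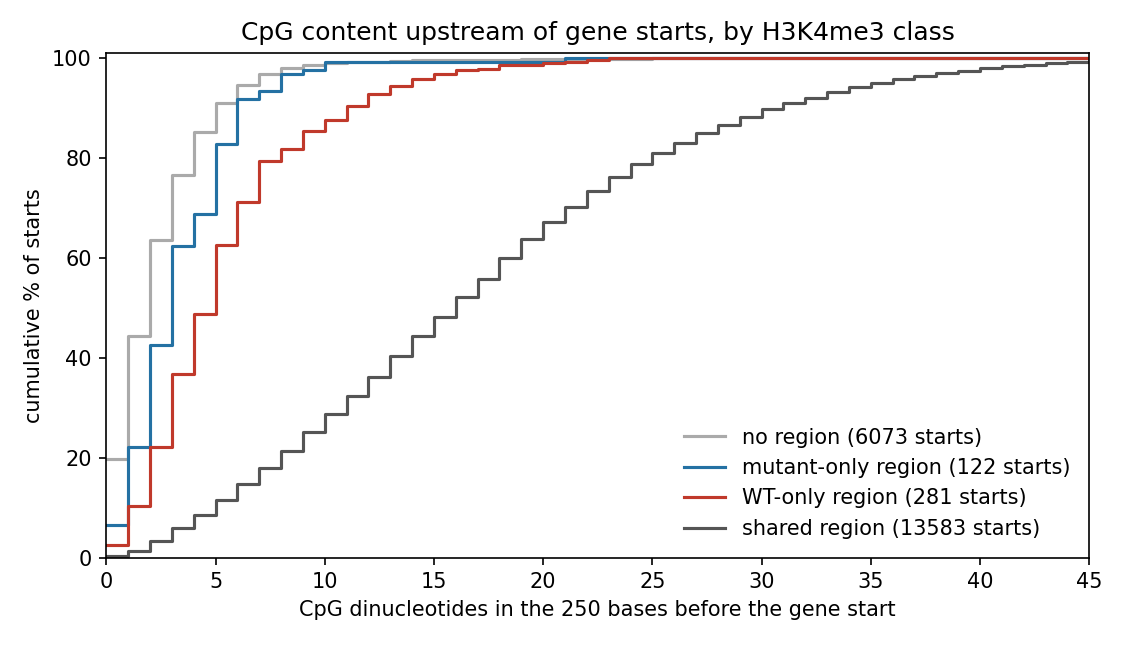
Cumulative percent of annotated gene starts (y) by the number of CpG dinucleotides in the 250 bases before them (x), for starts with no H3K4me3 region, a mutant-only, a WT-only or a shared region within 1 kb. The WT-only line, with a median of 5, runs between those of empty starts (2) and shared starts (16).

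WDR5 itself was rarely listed at WT-only regions in either line. A WT rescue WDR5 region overlapped 145 of the 13394 (1.08%, interval 0.914 to 1.27%), and a mutant rescue WDR5 region overlapped 152 (1.13%, 0.962 to 1.33%). Over all WT rescue H3K4me3 regions these shares were 6.75% and 4.42%, and in shared regions 8.11% and 5.21%. Mutant-only regions had 95 (0.591%, 0.479 to 0.722%) and 161 (1.00%, 0.854 to 1.17%). The WT rescue WDR5 list has 11095 regions and the mutant rescue list 26888, so a share in one list cannot be set against a share in the other. With a −log10 q of at least 2 required in all 4 lists the shares of WT-only regions were 0.423% and 0.361%, and with lists of equal length 1.07% and 0.648%. For the strength of WDR5, at most 1 WDR5 region was counted per H3K4me3 region. A −log10 q of at least 2 was reached by 54 of 145 WDR5 regions on WT-only regions in the WT rescue list (37.2%) and by 44 of 152 in the mutant rescue list (28.9%). Among WDR5 regions on shared regions it was 17.2% and 26.0%, and on mutant-only regions 13.7% and 10%. Over all WDR5 regions of chromosomes 1 to 19, on H3K4me3 or not, it was 10.4% and 4.65%.

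A wide region is more likely to be hit than a narrow one, so the shares were also taken within classes of width. Among regions of up to 250 bp, a WT rescue WDR5 region overlapped 1.18% of WT-only regions (0.909 to 1.503%) and 1.48% of shared ones (1.14 to 1.89%), and a mutant rescue WDR5 region overlapped 1.01% (0.764 to 1.32%) and 1.90% (1.51 to 2.35%). From over 250 to 500 bp the shares with the WT rescue list were 0.994% (0.754 to 1.29%) and 2.38% (2.07 to 2.72%). From over 500 to 1000 bp they were 1.12% (0.709 to 1.67%) and 2.57% (2.33 to 2.81%). Of the 172 WT-only regions wider than 1000 bp, 1 was overlapped by the WT rescue WDR5 list and 0 by the mutant rescue list, which allows a share of up to 2.12%, against 14.96% and 8.52% of shared regions of that width. At protein-coding starts, 8 of 614 WT-only regions (1.303%) and 22.4% of shared regions carried a WT rescue WDR5 region. This last pair was not matched for width, as the median widths there were 326.5 bp for WT-only and 1453 bp for shared regions.

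**Figure D5:**
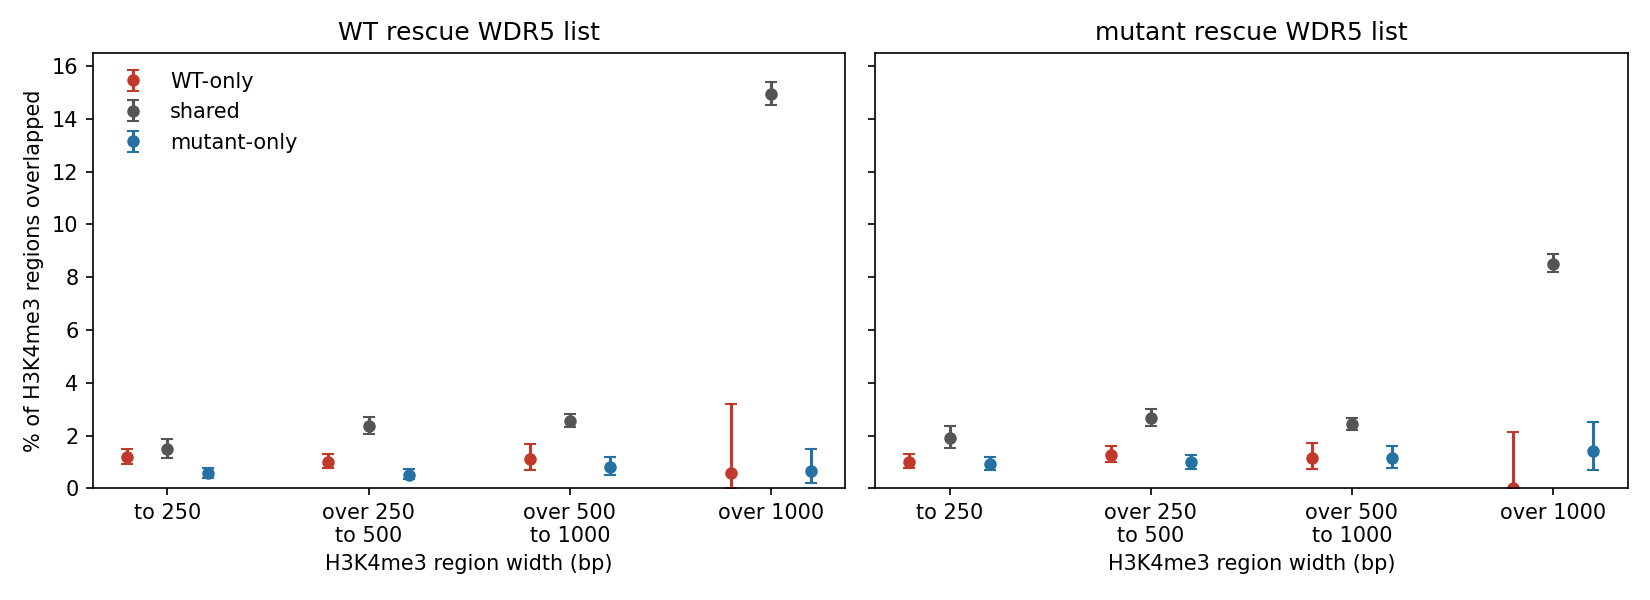
Percent of H3K4me3 regions overlapped by a region of the WT rescue (left) or mutant rescue (right) WDR5 list (y) in 4 classes of H3K4me3 region width in bp (x), for WT-only, shared (WT rescue rows) and mutant-only regions; bars are exact 95% intervals. WT-only regions lie between 0.994% and 1.27% up to 1000 bp and at 0.581% and 0 beyond, while shared regions wider than 1000 bp reach 14.96% and 8.52%.

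The share with WDR5 was higher among WT-only regions of high fold. It was 0.736% below a fold of 3 and 3.06% (1.53 to 5.40%) at 6 or more in the WT rescue list, and 0.826% and 3.06% in the mutant rescue list. At a fold of 6 or more, 11 of 360 regions were overlapped in each list, and 9 were the same regions. Of these 11, 7 in each list were 270 to 290 bp wide. Without regions of that width, 4 of 347 at a fold of 6 or more were overlapped in each list (1.15%, 0.315 to 2.93%), against 0.739% and 0.803% below a fold of 3.

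Some regions listed in both WDR5 lists shared a narrow range of widths. Of 48 such WT-only regions, 14 (29.2%, 16.95 to 44.1%) were 270 to 290 bp wide, against 693 of 13145 (5.27%) in neither WDR5 list. Among shared regions it was 61 of 1244 (4.90%) against 1.54%, and among mutant-only regions 0 of 9 against 4.65%. Among WT-only regions in both WDR5 lists, the highest H3K4me3 fold was at chr2:115502110-115502387. This region was 278 bp wide, between protein-coding genes and over the long non-coding RNA gene 3110099E03Rik. Its H3K4me3 fold was 9.23, its WDR5 fold was 38.8 in the WT line and 11.9 in the mutant line, and the nearest mutant rescue H3K4me3 region lay 77193 bp away. The next, of 282 bp in Adcy1, the gene of an adenylyl cyclase, had an H3K4me3 fold of 8.66 and WDR5 folds of 22.6 and 9.94. At both sites a WDR5 region was listed in either line, and an H3K4me3 region in the WT rescue list alone. The highest WDR5 folds over a WT-only region were 47.2 in the WT line and 34.4 in the mutant line. Both were at a region of 278 bp in Ythdf3, with an H3K4me3 fold of 5.37 and a mutant rescue H3K4me3 region 490 bp away. In Mettl3, the catalytic subunit of the methyltransferase that makes N6-methyladenosine in RNA, 4 WT-only regions of 159 to 216 bp were likewise overlapped in both WDR5 lists, with H3K4me3 folds of 3.46 to 6.19 and a mutant rescue H3K4me3 region 248 to 1232 bp away. The Ythdf3 and Mettl3 regions were picked after their values were seen.

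WT-only regions were spread over all autosomes. They were 16.6% of the WT rescue regions of chromosome 16 (15.1 to 18.1%) and 21.0% of those of chromosome 8 (19.8 to 22.2%), the lowest and the highest share. Chromosome 16 also had the highest share of mutant-only regions among mutant rescue regions, 26.6% (24.9 to 28.3%). On a scale of 1 Mb, over 1325 windows with at least 20 WT rescue regions, the median share was 18.4% and the middle 80% of windows lay between 8.92% and 30.0%. In 5 windows at least 50% of the regions were WT-only, with the highest share at 149 to 150 Mb of chromosome 3, 15 of 24 (62.5%), where 2 of 11 mutant rescue regions were mutant-only.

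Long genes held several WT-only regions each. At least 1 lay over 4324 protein-coding genes and at least 5 over 195 genes, whose median length was 192 kb against 17.5 kb for all. Mutant-only regions lay over 3539 genes, and at least 5 of them over 234. Zfhx3, a large homeodomain and zinc finger factor, held 19, out of 47 WT rescue regions over its 682 kb, beside 2 mutant-only of 31 mutant rescue regions. Wwox, a WW-domain oxidoreductase, held 17 of 27, beside 4 of 15. Cit, the gene of citron kinase, which acts in cytokinesis, held 12 of 20 in 164 kb, beside 1 of 9. Tenm3, a teneurin, held 14 of 60, beside 16 mutant-only of 63, so there the lines were alike in number. The genes were taken for their high counts of WT-only regions, so the lower mutant-only counts beside them show no difference between the lines.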

How the data were processed

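H3K4me3 and WDR5 were mapped by ChIP-seq, and 4 peak lists, each of 1 library, were used; the inputs were not used here. Processing with MACS2 2.1.2, Picard, SAMtools and BWA 0.7.17-r1188 on mm10 is recorded per the submitters' processing notes; roles, settings and the control for each list are not given in the sources used here. For every region the deposited lists hold a fold (a ratio at the summit), the −log10 of its p and q, and a score, which was not used. The smallest deposited −log10 p was 2.00, so weak regions are included. Read depth is unknown, and a region missing from a list may lie just under its threshold.

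Overlap was at least 1 bp unless another is named. Gene positions came from RefSeq tables on GRCm38.p6; 79.6% of 20661 protein-coding genes had an annotated start. A gene start was occupied when a region lay within 1 kb. Overlap and gene code was tested on simulated intervals. Plots were made with matplotlib 3.10.9, and everything else with scipy 1.17.1, pandas 2.3.3 and numpy 2.4.6 under Python 3.11.15. The regions and gene lists were chosen with earlier results of these data known. Genes named are the 10 of highest fold at a start, the 10 of highest −log10 p more than 5 kb from a mutant rescue region, the 5 strongest and 5 widest regions, up to 4 genes of each list, the regions at the edge of the rule and the strongest with WDR5, apart from some not reported here; others are said to have been picked later.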

Additional observations from a re-analysis of the deposited data

Results flagged for a closer look

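Chromosomes X and Y were outside the rule. On chromosome X, 370 of 2223 WT rescue H3K4me3 regions (16.6%, interval 15.1 to 18.3%) had no mutant rescue region over them. On chromosome Y it was 36 of 125 (28.8%, interval 21.1 to 37.6%). Both are drawn to attention because they show the same kind of region in data that the comparisons leave out.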

How the results depend on the processing

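Under each of the 12 alternatives, WT-only regions lay at the gene starts counted more often than mutant-only regions. More genes had a WT-only than a mutant-only region without a partner in each as well. The starts were those of protein-coding genes, except that all annotated genes counted starts of every class (10.5% against 7.52%). From 9 to 11 keratin genes were in the WT-only class under the 11 alternatives in which they were recounted. The rest moved as follows. With a −log10 q of at least 2 for WT-only regions, 59.8% were more than 5 kb from a mutant rescue region; with it in all lists this was 60.8%, and the WDR5 shares were 0.423% (WT rescue) and 0.361% (mutant rescue). With a −log10 p of at least 5 there were 7802 WT-only regions, 62.6% of them beyond 5 kb and 5.56% at starts, WDR5 shares of 1.55% and 1.45%, and 74 mutant-only genes. Lists of equal length gave a mutant rescue WDR5 share of 0.648%. A reciprocal overlap of 50% gave 24907 regions, 4.95% at starts, 30.7% beyond 5 kb and 1205 genes. Without regions within 1 kb of a mutant rescue region, 3.89% lay at starts, 71.0% beyond 5 kb, and 402 genes had one. The share at starts and the number of genes with a WT-only region were 7.80% and 1034 with a window of 2.5 kb, and 10.5% and 1473 for all annotated genes, of which 885 had no partner against 690 mutant-only. Either gene end gave 6.38%. Of these alternatives, 2 were added after seeing the data. Genes with an annotated start alone gave 2.93% and 385 genes. Leaving out every region of 270 to 290 bp whose fold was 5 or more moved no value beyond its interval or by 1.5 times. Chromosomes 1 to 19 with X did not either. The WDR5 shares by fold without regions of 270 to 290 bp, given above, were also chosen after seeing the data. Wider windows, more genes and stricter overlap change these counts by construction; the cause of the other shifts was not tested. No paired analysis was possible because each group holds 1 library. Depth is unknown and limits which weak regions were listed.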
